A study of Mus musculus with 27 samples.

Results

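The genes of the voltage-gated sodium and calcium channels, the Hcn channels and the potassium channels were examined in mouse olfactory mucosa, the tissue at the back of the nasal cavity that holds the odor-sensing neurons. Members were all array genes whose symbol begins with Kcn, Cacna, Hcn and a digit, or Scn with a number and a or b. The rule found 103 of 16637 genes on the array, and these are called channel genes here. They comprise 77 Kcn, 12 Cacna, 3 Hcn and 11 Scn genes, measured by 136 probes. Where a gene had several probes (26 genes), its brightest probe on average was used. Occluded mucosa came from behind a nostril closed by cautery, and open mucosa from the other side of the same mice. Normal mucosa came from other mice that received a sham cautery. All mice were 25-day-old females of the FVB strain, with 3 biological replicates per group and 3 arrays per replicate, 27 arrays in all. Whole mucosa was extracted, so fewer cells of a type and less RNA per cell cannot be told apart.

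Voltage-gated sodium channels carry the upstroke of the action potential, and voltage-gated calcium channels let in the calcium that triggers transmitter release at the axon terminal. Hcn channels open on hyperpolarization and carry a depolarizing cation current, while potassium channels repolarize the membrane and set its resting potential. Neurons deprived of input can shift the balance of these currents and so change their excitability, a form of homeostatic plasticity. The comparison of occluded with open and normal mucosa asks whether transcripts of these channels differed in tissue with reduced odor access.

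Promoters are shown for 3 genes that the results below turn on, namely the pacemaker channel gene Hcn2, the L-type calcium channel gene Cacna1f and the large-conductance potassium channel gene Kcnma1. Each sequence runs from 250 bases before to 50 bases after the annotated gene start, from RefSeq on GRCm38.p6, written 5′ to 3′ on the strand of the gene. Capitals mark the GC box, the letters GGGCGG or, on the other strand, CCGCCC, which is the motif bound by Sp-family factors. The Hcn2 promoter lies at chr10:79716384-79716683 on the plus strand, that of Cacna1f at chrX:7606853-7607152 on the plus strand, and that of Kcnma1 at chr14:24004156-24004455 on the minus strand.
Hcn2: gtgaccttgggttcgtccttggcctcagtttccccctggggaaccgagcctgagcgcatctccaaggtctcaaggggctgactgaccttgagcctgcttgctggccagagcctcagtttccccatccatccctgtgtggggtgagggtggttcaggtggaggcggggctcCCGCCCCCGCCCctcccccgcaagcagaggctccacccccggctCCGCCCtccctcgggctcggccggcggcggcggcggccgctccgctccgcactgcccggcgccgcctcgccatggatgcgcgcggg
Cacna1f: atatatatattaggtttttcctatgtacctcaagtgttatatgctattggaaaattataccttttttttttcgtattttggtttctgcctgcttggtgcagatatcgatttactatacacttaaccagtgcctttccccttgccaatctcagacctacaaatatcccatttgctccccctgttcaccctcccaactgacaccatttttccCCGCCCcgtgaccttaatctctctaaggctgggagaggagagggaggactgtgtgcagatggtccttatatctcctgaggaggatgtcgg
Kcnma1: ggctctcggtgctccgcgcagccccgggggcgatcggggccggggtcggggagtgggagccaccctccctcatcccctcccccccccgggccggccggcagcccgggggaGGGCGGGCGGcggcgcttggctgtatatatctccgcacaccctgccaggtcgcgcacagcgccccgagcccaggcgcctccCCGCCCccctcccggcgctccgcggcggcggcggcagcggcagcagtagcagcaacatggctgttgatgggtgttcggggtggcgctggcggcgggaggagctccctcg
The GC box occurred 3 times in the Hcn2 window, once in that of Cacna1f and 3 times in that of Kcnma1, where overlapping matches are joined in capitals. It was present in 51 of the 80 channel genes with a promoter in the RefSeq table (63.7%), in 56.6% of 13345 array genes and in 38.2% of all 27025 promoters of the table. The median GC content was 60.4% in the windows of the channel genes and 58.3% in those of the array genes. These matches describe the letters of the windows alone. Kcnq1, also described below, has no entry in the table.

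Most channel genes were measurable. The noise limit of an array was taken as 3 times the root mean square of the negative readings. Of the 103 genes, 79 (76.7%) lay above it on all 27 arrays, against 80.9% of all genes, and no channel gene was saturated on any array. The 10 genes below the limit on 14 or more arrays were Hcn4, Kcnip2, Kcnv1, Kcna4, Kcna7, Kcnh8, Scn10a, Scn11a, Kcnmb2 and Kcnj5. Scn11a, a sodium channel of pain-sensing neurons, was below it on all 27 arrays. Levels below are quantile-normalized log2 intensity values, 1 per replicate as the mean of its 3 arrays. Differences are log2 differences with their standard error (SE) from limma, with Benjamini-Hochberg adjustment over all 29922 probes.

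Labels and tissue were checked with genes outside the channel families. The activity-dependent calcium-binding protein gene S100a5 was at 13.40, 13.76 and 14.27 in the occluded replicates, against 15.79, 15.91 and 15.93 in the open ones, and differed by -2.07 ± 0.18 (SE; limma adjusted p = 0.0095). The mature olfactory neuron markers Omp, Gnal, Adcy3, Cnga2, Cngb1, Ano2, Gng13 and Stoml3 were all above the noise limit, and Omp was saturated on 26 of 27 arrays. Their summed linear intensity was 226649 to 253621 in occluded, 194650 to 200170 in open and 199894 to 206983 in normal replicates. All 8 were above 0 in occluded minus open, with a median of 0.40, a smallest difference of 0.003 and none past the adjusted threshold. Omp is counted in the sums, the 8 and the median, although its saturated readings can show little difference. The summed markers of smooth muscle and pericytes were at 38139 to 49244 in occluded, 48667 to 64400 in open and 41561 to 51396 in normal replicates, and 6 of 6 were below 0 in occluded minus open. Of the 7 immature neuron markers, 1 was above 0 and the median was -0.19. Markers of horizontal basal cells (0 of 5 above 0, median -0.27) and of Bowman glands (0 of 4, median -0.35) lay below 0, and those of microvillar cells or ionocytes above it (6 of 6, median 0.14). The part of these shifts in the channel results was not tested.

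No channel gene passed an adjusted p of 0.05 in occluded against open mucosa, where 0.264% of all genes passed. At an unadjusted p under 0.05 there were 5 of 103 channel genes (4.85%), against 5.55% of all genes, so the channel genes were called no more often than the array as a whole. Of these 5, Hcn2, Cacna1f, Kcnq1 and Kcnh8 were higher (3.39% of all genes) and Kcnma1 was lower (2.16% of all genes) in occluded mucosa. The groups did not overlap for 8 channel genes (7.77%), against 6.88% of all genes. These were Hcn2, Cacna1f, Kcnh8, Kcnq1 and Kcnj4 on the higher side (4.09% of all genes) and Cacna1g, Kcne1l and Kcnma1 on the lower side (2.78% of all genes). The median difference of the channel genes was 0.05, with 60 above and 43 below 0, against 0.01 and 51.5% above 0 for all genes. Without the 10 genes below noise on most arrays, 55 were above and 38 below 0, with the same median. For 77 of the 103 genes the 95% interval of the difference (not adjusted for the number of genes) lay within ±1 and for 19 it lay within ±0.5. The median distance from the estimate to either end of the interval was 0.51. Smaller differences thus mostly did not reach even an unadjusted p under 0.05 with 3 replicates. The adjusted threshold asks for more, and Hcn2, at 0.76, did not pass it. The absence of calls therefore does not exclude differences above 0.51.

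**Figure D1:**
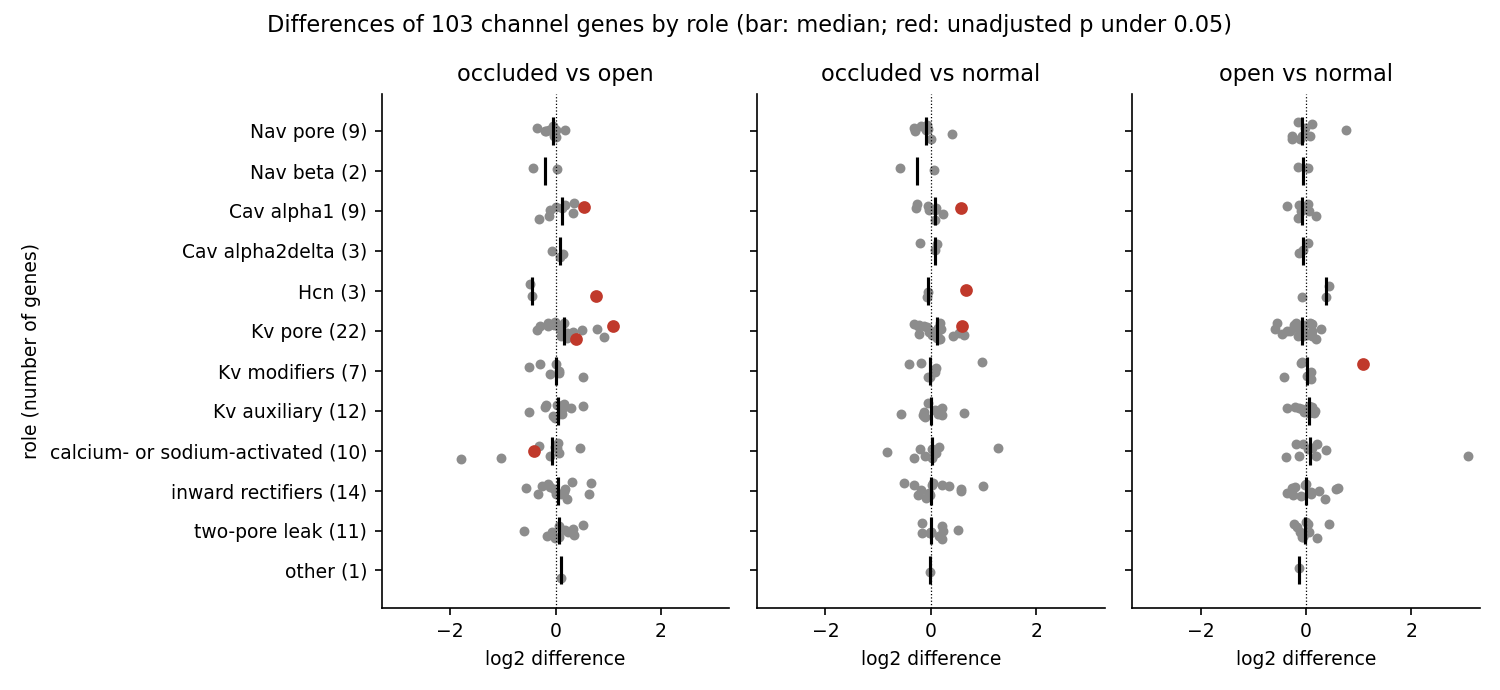
Log2 difference of each of the 103 channel genes in the 3 comparisons (horizontal axis), by role (vertical axis, number of genes in parentheses). Points are genes, short vertical bars are medians, and red points have an unadjusted p under 0.05. The 10 genes below noise on most arrays are included. Most points lie between -1 and 1, with 4 genes (occluded against open) above 0 and 1 below 0 among the red points.

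Among the Hcn genes, Hcn2, which encodes a pacemaker channel subunit of the brain, had the smallest p in occluded against open. It was at 13.78, 13.61 and 13.60 in the occluded replicates, against 13.28, 12.82 and 12.61 in the open and 13.24, 12.68 and 13.04 in the normal replicates. All 3 occluded values were higher than all 6 values of the other groups. The difference from open was 0.76 ± 0.18 (SE, n = 3 each; 95% interval 0.35 to 1.17; limma adjusted p = 0.27), a fold of 1.69, and it was 0.49, 0.79 and 0.997 in the 3 numbered pairs. Of the 16637 genes, 142 had a smaller p in this comparison. In the intensities as deposited, before normalization, Hcn2 ran from 11696 to 16293 on the 9 occluded arrays, against 6405 to 9096 on the 9 open and 6512 to 9376 on the 9 normal arrays. Over 18 other ways of processing, the Hcn2 difference from open ranged from 0.64 to 0.89 and its limma adjusted p from 0.058 to 1.0, and it never passed. Its shift lay in the direction of the mature neuron markers, whose median was 0.40, and a link between them was not tested. Hcn3 differed by -0.46 ± 0.21, but its other probe, below noise on 19 arrays, differed by 0.48 ± 0.17. Hcn4, the sinoatrial pacemaker subunit, was below the noise limit on 16 arrays and is given no fold.

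**Figure D2:**
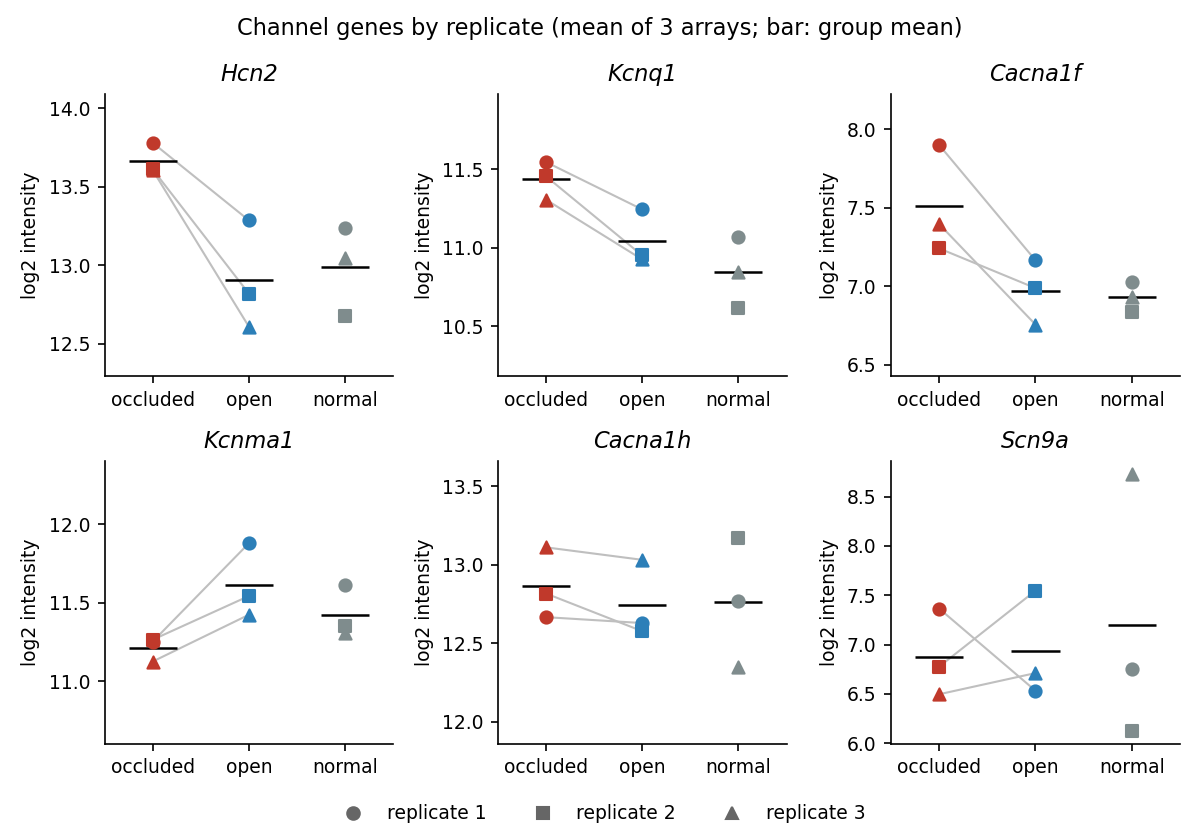
Log2 intensity (vertical axis) of 6 channel genes in occluded, open and normal mucosa. Points are replicates (mean of 3 arrays), grey lines join occluded and open replicates of the same number, and black bars are group means. Hcn2, Kcnq1 and Cacna1f are higher and Kcnma1 is lower in all 3 occluded replicates than in any open one, while Cacna1h and Scn9a overlap.

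The sodium channel pore genes centred near 0. Of the 9, 3 were above and 6 below 0 in occluded minus open, with a median of -0.05. Leaving out Scn10a and Scn11a, below noise on most arrays, the other 7 ranged from -0.20 to 0.02, with 2 above 0. Scn9a, which encodes Nav1.7, the channel that olfactory neurons need to pass odor signals to the bulb in mice, was at 7.36, 6.78 and 6.50 in occluded, 6.53, 7.55 and 6.71 in open and 6.75, 6.13 and 8.73 in normal replicates. The groups overlapped fully, and its interval of -1.18 to 1.08 around -0.05 reaches past 1 in both directions. Scn8a, encoding Nav1.6 of the axon initial segment, was at 11.71, 11.29 and 11.47 in occluded, against 11.57, 11.64 and 11.24 in open replicates. Its difference was 0.01 ± 0.17, with a 95% interval of -0.37 to 0.39. Scn3a, encoding Nav1.3 of developing neurons, differed by -0.18 ± 0.19, and the muscle channel gene Scn4a by 0.02 ± 0.20. The summed skeletal muscle markers were at 1156 to 1274 in occluded, 994 to 1526 in open and 1209 to 1396 in normal replicates. Among the auxiliary beta subunits, Scn3b differed by -0.43 ± 0.26 and Scn2b by 0.02 ± 0.22. Scn3b was at 9.14, 8.95 and 8.66 in occluded, 9.26, 9.66 and 9.13 in open and 9.74, 8.75 and 10.002 in normal replicates, and the occluded values overlapped both other groups.

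Among the 9 calcium channel pore genes, 6 were above and 3 below 0, with a median of 0.12 and a range of -0.31 to 0.54. Cacna1f, which encodes the L-type channel Cav1.4 known from photoreceptors, was at 7.90, 7.24 and 7.39 in occluded, 7.16, 6.99 and 6.76 in open and 7.02, 6.84 and 6.93 in normal replicates. All 3 occluded values were above all other values. The difference from open was 0.54 ± 0.17 (limma adjusted p = 0.52), and its dimmer second probe differed by 0.61 ± 0.43. Cacna1b, the N-type channel gene of presynaptic terminals, was at 10.83, 10.57 and 10.38 in occluded, against 10.59, 10.13 and 10.02 in open replicates. It was higher on the occluded side in 3 of 3 pairs while the groups overlapped, and its difference was 0.35 ± 0.15 (limma adjusted p = 0.81). Of its 2 other probes, one differed by 0.35 ± 0.15 and the other by 0.13 ± 0.31. The T-type gene Cacna1h, a low-threshold channel, was at 12.67, 12.82 and 13.11 in occluded, against 12.63, 12.58 and 13.03 in open replicates, and differed by 0.12 ± 0.19. The T-type gene Cacna1g was at 7.95, 7.93 and 7.96 in occluded, against 8.07, 8.14 and 8.55 in open replicates. Those groups did not overlap, yet the difference of -0.31 ± 0.20 was within the fitted error. The probes of the L-type gene Cacna1c disagreed, with 0.02 ± 0.17 for the brightest and 0.50 ± 0.35 and -0.46 ± 0.17 for the others. The 3 alpha2delta genes, whose products carry calcium channels to the membrane, differed by 0.07 (Cacna2d1), 0.13 (Cacna2d2) and -0.07 (Cacna2d3).

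**Figure D3:**
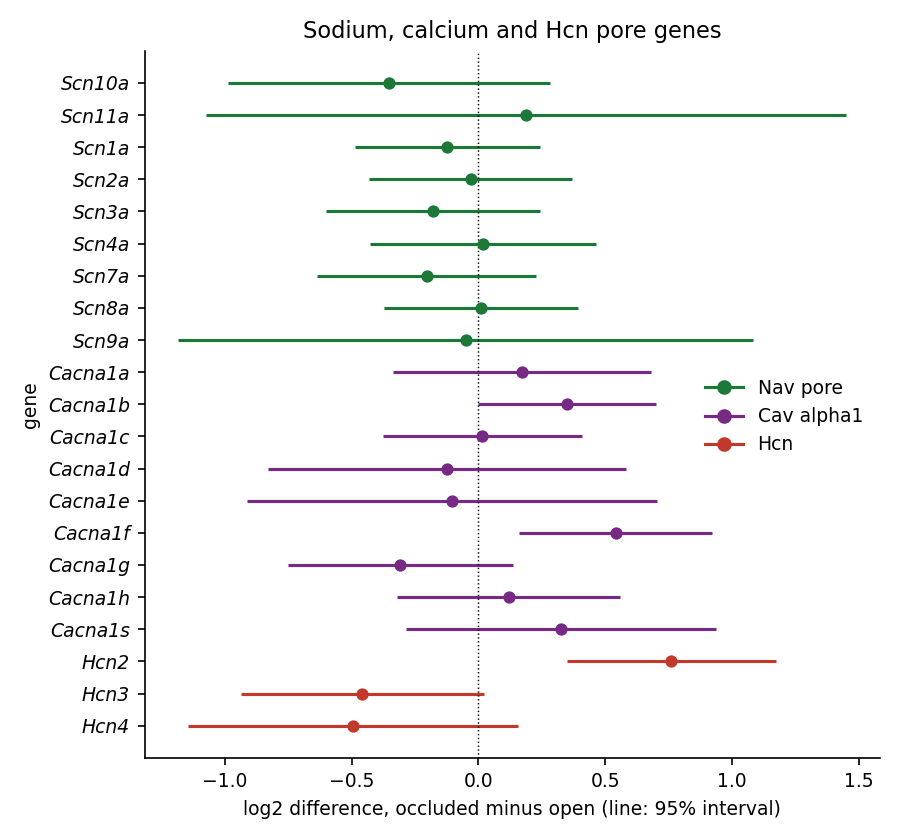
Log2 difference, occluded minus open (horizontal axis), of the 21 sodium (Nav), calcium (Cav) and Hcn pore genes (vertical axis). Points are limma estimates and lines 95% intervals, not adjusted for the number of genes. Hcn4, Scn10a and Scn11a were below noise on most arrays. The intervals of Hcn2 and Cacna1f lie above 0 and the others cross it.

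The voltage-gated potassium (Kv) pore genes lay more often above than below 0. Of 22, 16 (72.7%) were above 0 in occluded minus open, with a median of 0.16, against 51.5% of all genes. These 16 include Kcna4, Kcna7 and Kcnh8, which were below noise on most arrays. Of the other 19 genes, 13 were above 0, with a median of 0.14 and a range of -0.35 to 0.93. The upper end is Kcnd3, which read near noise. By numbered pair the median of the 22 was 0.025, 0.35 and 0.17, so it lay close to 0 in pair 1. With the arrays centred on their medians 16 of the 22 were above 0, and without normalization 15. In occluded minus normal 14 of the 22 were above 0 (median 0.12) and in open minus normal 7 (median -0.07; 0.0095 without normalization). The 3 comparisons share samples. Kcnq1, which encodes a slow potassium channel of heart and epithelia, was at 11.55, 11.45 and 11.31 in occluded, 11.24, 10.95 and 10.92 in open and 11.07, 10.62 and 10.85 in normal replicates. All occluded values were above all others. Its difference from open was 0.40 ± 0.15 (limma adjusted p = 0.69) and its second probe differed by 0.22 ± 0.21. Kcnh8, an Elk-type channel gene, had the smallest p of all channel genes in this comparison, with levels of 1.22, 1.49 and 1.72 in occluded and -0.12, 0.47 and 0.83 in open replicates (limma adjusted p = 0.12). It was below noise on 25 of 27 arrays, the open ones included, so no fold is given. Kcnc4, a fast Shaw-type gene, was at 15.34, 15.22 and 15.31 in occluded, against 15.34, 14.97 and 15.07 in open replicates, a difference of 0.17 ± 0.13. The A-type gene Kcnd3 was at 4.90, 4.76 and 4.29 in occluded, against 4.70, 2.59 and 3.88 in open replicates, and differed by 0.93 ± 0.46. Most of that difference came from open replicate 2, since the 3 pairs differed by 0.20, 2.17 and 0.41. In normalized linear intensity Kcnd3 was at 6.02 in open replicate 2 and 8.25 in normal replicate 2. The noise limits of the arrays as deposited were 11.6 to 24.1, and its SD between arrays of a replicate was 0.92. On the lower side, Kcna2, a delayed-rectifier gene of axons, differed by -0.35 ± 0.25. Kcna5 differed by 0.31 ± 0.36, Kcna6 by 0.11 ± 0.17, Kcnh1 by -0.15 ± 0.31, Kcnq3 by 0.23 ± 0.19 and Kcnq5 by 0.21 ± 0.26.

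The silent subunit genes (Kcng, Kcns and Kcnv), which modify other Kv channels, and the auxiliary subunit genes (Kcnab, Kcne and Kcnip) had medians near 0. For the 7 silent subunits the median was 0.02 (-0.05 without normalization and -0.00066 with median centring), within a range of -0.50 to 0.52. For the 12 auxiliary subunits it was 0.05. Without Kcnip2, below noise on 15 arrays, it was 0.03, within a range of -0.50 to 0.30. Kcns2 was at 7.16, 6.08 and 5.89 in occluded, against 6.06, 5.75 and 5.76 in open replicates. Its difference of 0.52 ± 0.25 came mainly from replicate 1. Kcne1l was at 6.57, 6.68 and 6.80 in occluded, against 6.82, 6.90 and 6.87 in open replicates, without overlap, and differed by -0.18 ± 0.14. Kcnip3, encoding the calcium sensor and transcriptional repressor DREAM, differed by 0.16 ± 0.21.

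The genes of the Kcnma, Kcnmb, Kcnn, Kcnt and Kcnu families were grouped by symbol as calcium- or sodium-activated. The group holds the auxiliary Kcnmb subunits, and gating by calcium or sodium is not implied for every member, such as Kcnu1. Of these 10 genes, 4 were above and 6 below 0, with a median of -0.07. Without Kcnmb2, below noise on 17 arrays, 4 were above and 5 below 0, with a median of -0.02 and a range of -1.03 to 0.47. The lower end is Kcnn2, which read below noise on some arrays and well above it on others. Kcnma1, the BK channel pore gene, was at 11.25, 11.26 and 11.12 in occluded, 11.88, 11.54 and 11.42 in open and 11.61, 11.35 and 11.31 in normal replicates. Occluded values were below all others. The difference from open was -0.40 ± 0.15 (limma adjusted p = 0.67). Its second probe differed by 0.11 ± 0.17, so the probes disagreed in sign. BK channels are also abundant in smooth muscle, whose 6 markers had a median of -0.29 in the same comparison. A link between these shifts was not tested. The BK beta subunit gene of neurons, Kcnmb4, was at 11.00, 10.85 and 10.64 in occluded and 11.00, 10.85 and 10.70 in open replicates, and differed by -0.02 ± 0.20. Of the small-conductance genes, which set afterhyperpolarization, Kcnn1 differed by 0.07 ± 0.13, Kcnn3 by 0.47 ± 0.24 and Kcnn2 by -1.03 ± 0.52. Kcnn2 was at 4.14, 4.86 and 5.16 in occluded, 4.52, 5.56 and 7.19 in open and 4.48, 6.16 and 5.998 in normal replicates. Its difference was largest in pair 3, where it was -2.03, against -0.38 and -0.70 in the other pairs. As deposited Kcnn2 read 8.10 and 9.39 on arrays of occluded replicates 1 and 2, below their noise limits of 13.2 and 13.9. It also read 11.4 on an array of open replicate 1 and 9.07 on an array of normal replicate 1, below limits of 11.6 and 13.5. On all other arrays Kcnn2 was above the limit. It read 145.9 to 200.5 on the arrays of open replicate 3, against 27.9 to 90.4 on those of occluded replicate 3. Kcnt1, a sodium-activated channel gene, differed by -0.12 ± 0.33.

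The inward rectifier genes, which hold the resting potential, lay on both sides of 0, with 8 of 14 above it, a median of 0.05 and a range of -0.56 to 0.67. Kcnj4 was at 11.75, 11.33 and 11.47 in occluded, against 11.29, 11.15 and 11.21 in open replicates, without overlap, and differed by 0.30 ± 0.15 (limma adjusted p = 0.87). Against normal it differed by 0.03 ± 0.19. Kcnj15 differed by -0.56 ± 0.31, with -1.32 in pair 1 and -0.11 and -0.25 in the others, and its second probe differed by 0.19 ± 0.35. The ATP-sensitive channel gene Kcnj11 differed by -0.26 ± 0.41. Of the 11 two-pore leak channel genes, 7 were above 0, with a median of 0.06 and a range of -0.59 to 0.52. Kcnk10, encoding TREK-2, was at 10.91, 10.77 and 10.18 in occluded, 10.20, 10.23 and 9.86 in open and 10.34, 9.45 and 10.53 in normal replicates. It was higher on the occluded side in 3 of 3 pairs but overlapped both other groups, with a difference from open of 0.52 ± 0.24 (limma adjusted p = 0.84). Kcnk1, encoding TWIK-1, differed by 0.34 ± 0.22, Kcnk2, encoding TREK-1, by -0.59 ± 0.34 and Kcnk3, encoding TASK-1, by -0.16 ± 0.22. Kcnrg, a regulator of Kv assembly, differed by 0.10 ± 0.19.

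Taken by the current they carry, the 21 pore genes for inward current (sodium, calcium and Hcn) had 10 above and 11 below 0 in occluded minus open, with a median of -0.03. The 54 pore genes for potassium current had 35 above and 19 below 0, with a median of 0.10. Of all genes 51.5% were above 0, with a median of 0.01. Hcn4, Scn10a and Scn11a in the inward set and Kcna4, Kcna7, Kcnh8 and Kcnj5 in the potassium set were below noise on most arrays. The inward and potassium medians were -0.04 and 0.13 with median centring, where that of all probes was 0.02. Without normalization they were -0.09 and 0.08, against -0.03 for all probes. In occluded minus normal 8 of the 21 inward genes (median -0.06) and 31 of the 54 potassium genes (median 0.03) were above 0. Of all genes 52% were above 0 there, with a median of 0.01. In open minus normal 8 inward (median -0.07) and 22 potassium genes (median -0.05) were above 0, against 48.9% of all genes. No test of the difference between these sets was made. By numbered pair, 21 channel genes (20.4%) were higher on the occluded side in 3 of 3 pairs, against 14.8% of all genes. Another 10 (9.71%) were lower in 3 of 3, against 12.7% of all genes.

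Against normal mucosa, which came from other mice, no channel gene and no other gene passed an adjusted p of 0.05 for occluded mucosa by its brightest probe (0% of genes; 0.00668% of probes passed). This comparison shares the occluded samples with the one above. At an unadjusted p under 0.05 there were 3 channel genes (2.91%), against 2.49% of all genes. They were Kcnq1 (0.59 ± 0.19), Hcn2 (0.68 ± 0.23) and Cacna1f (0.58 ± 0.21), each higher in occluded mucosa (1.48% of all genes) and each with a limma adjusted p of 1.0. The groups did not overlap for 8 channel genes, against 6.85% of all genes. Besides these 3, Kcnip2, Kcnv1 and Kcnh8, all near or below noise, lay on the higher side (3.85% of all genes). Kcnma1 (-0.21 ± 0.19) and Kcnj16 (-0.31 ± 0.19) lay on the lower side (3.01% of all genes). The second probe of Kcnma1 differed by -0.24 ± 0.22 here. In open minus normal that probe differed by -0.35 ± 0.22, while the brightest probe lay above 0. The median over channel genes was 0.01, as for all genes, and 54 of 103 lay above 0, against 52% of all genes. The 95% interval lay within ±1 for 63 genes.

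Open against normal mucosa shows how the ventilated side of occluded mice compared with the mucosa of sham-treated mice. Again no channel gene and no gene on the array passed (0%). Only Kcnv1, below noise on 24 of 27 arrays, had an unadjusted p under 0.05 among channel genes (0.97%), against 1.23% of all genes (0.631% on its higher side), and no fold is given for it. The groups did not overlap for Kcnv1, Kcns2 and Kcnj16, which is 2.91% against 3.95% of all genes (1.96% higher and 1.99% lower). Kcnv1 was on the higher side. Kcns2 differed by -0.42 ± 0.32 and Kcnj16 by -0.21 ± 0.19. The median was -0.04, with 46 above and 57 below 0, against -0.0038 and 48.9% above 0 for all genes. Hcn2, Kcnq1 and Cacna1f differed by -0.08 ± 0.23, 0.20 ± 0.19 and 0.04 ± 0.21.

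Replicate 1 tended to read high in every group. The median level of the channel genes was 7.38, 7.24 and 7.18 in occluded replicates 1 to 3, 7.58, 7.17 and 7.10 in open and 7.31, 7.15 and 7.10 in normal replicates. Replicate 1 was the highest of its group in all 3 groups for 25 channel genes (24.3%), against 19.6% of all genes, and the lowest for 11 (10.7%), against 15.6%. The normal mice are not those of the other groups, so a shared number is no shared animal there. The 25 genes include Hcn2, Kcnq1 and Cacna1f. Kcna3, a lymphocyte and olfactory potassium channel gene, was at 7.58, 6.74 and 6.39 in occluded, 7.40, 6.17 and 6.13 in open and 7.31, 6.25 and 6.63 in normal replicates. What the number stands for besides the animal was not tested.

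**Figure D4:**
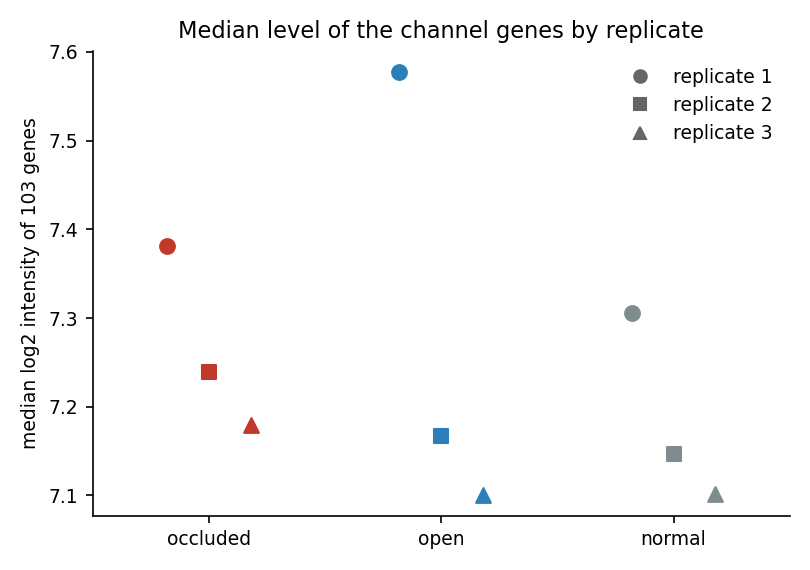
Median log2 intensity over the 103 channel genes (vertical axis) for each replicate of occluded, open and normal mucosa (horizontal axis). Points are replicates, with the symbol giving the number. Replicate 1 is the highest in each group, at 7.38, 7.58 and 7.31.

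A few channel genes varied mostly between arrays or replicates. The median standard deviation (SD) was 0.32 between the 3 arrays of a replicate and 0.37 between replicates of a group, against 0.32 between replicates for all genes. Kcnj2, an inward rectifier, was at 5.11, 9.08 and 5.87 in occluded, 5.33, 6.999 and 5.80 in open and 5.35, 5.21 and 6.52 in normal replicates. The high value of occluded replicate 2 came from 1 array, which read 20018 as deposited, where the other 2 arrays of that replicate read 68.9 and 101.0. Kcnmb2, a BK subunit gene, was below noise on 17 of 27 arrays and is given no fold. As deposited it read 89.9 on 1 array of occluded replicate 2 and 99.53 on 1 array of occluded replicate 3, against 109.95 to 177.9 on all 6 arrays of open replicates 2 and 3, and 132.3 and 100.3 on 2 arrays of normal replicate 2.

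Other genes that act with these channels were taken from 4 lists. Of 36 partner and regulator genes (calcium channel beta and gamma subunits, ankyrins, scaffolds and kinases), none passed in occluded against open and the median was -0.05. Dlg2, a scaffold that clusters potassium channels, was at 8.15, 8.87 and 8.49 in occluded, against 8.96, 9.72 and 10.04 in open replicates (-1.07 ± 0.23, limma adjusted p = 0.20). Stac, which aids calcium channel trafficking, differed by -0.59 ± 0.15 (limma adjusted p = 0.33) without overlap of the groups. Of 22 other ion channel genes, none passed, 15 were above 0 and the median was 0.17. The list is not limited to olfactory neurons. It shares Cnga2, Cngb1 and Ano2 with the mature neuron markers and Trpm5 with the microvillar markers. The transduction channel gene Cnga2 differed by 0.53 ± 0.17, and Trpc2, the channel of vomeronasal neurons, by 0.84 ± 0.17 (limma adjusted p = 0.16). Of 19 pump and cotransporter genes, 1 passed (5.26%, against 0.264% of all genes), and the median was -0.14. That was the sodium-calcium exchanger gene Slc8a1, which fell to 10.95, 10.88 and 11.01 in occluded replicates, against 12.58, 12.24 and 12.27 in open ones (-1.42 ± 0.21, limma adjusted p = 0.046). Of 25 genes of homeostatic plasticity and activity response, none passed and the median was -0.02. The activity-response genes Fos and Nr4a1 differed by -1.12 ± 0.32 and -1.44 ± 0.42, with limma adjusted p of 0.43 and 0.46. In the other 2 comparisons none of the genes on the 4 lists passed.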

How the data were processed

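Cy5-labelled amplified RNA was hybridised with 1 sample per array. The authors' deposited values are linear probe intensity, 29922 probes on 27 arrays, from which background had been subtracted, judging by values at or below 0. The sources used here give neither scanner nor normalization. Readings of 0 or less were replaced by 0.912, the lowest positive reading, before log2, arrays were quantile normalized because their medians differed by 1.15, and the 3 arrays of a replicate were averaged. Array medians were 123 to 274, with 8.57% to 19.8% of probes below noise. limma 3.58.1 (R 4.3.3, statmod 1.5.0, version 1.17.8 of data.table) fitted 9 values in two-sided tests, the mouse being a random block (consensus correlation 0.389; -0.24 without replicate 1 of both sides, 0.63 and 0.56 without replicates 2 and 3). Equal numbers in the titles were read as 1 mouse, since the design text states repeated measures. Same-numbered occluded and open deviations correlated at 0.516, -0.004 and 0.142. Number 1 of the normal group, another mouse, correlated with them at 0.353 and 0.394, so the values do not show that a number marks 1 animal. Without stated separate extractions, p-values measure the spread between these samples. Symbols came from the array annotation, updated through RefSeq GRCm38.p6. Genes were named by rule: the 8 smallest p in each direction and comparison, the 2 highest-signal genes of each role, and a fixed list of further channels. Kcnj2, Kcna3, Kcne1l, Kcnmb4, Scn11a and a few others were named after their values were seen. Members and lists were chosen with earlier results of these data known. Python 3.11.15, pandas 2.3.3, numpy 2.4.6 and matplotlib 3.10.9 made summaries and figures.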

Additional observations from a re-analysis of the deposited data

How the results depend on the processing

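No channel gene passed an adjusted p of 0.05 under any of the alternatives run for the 3 comparisons (limma, or limma with a trended robust prior), and 0 of 2961 alternative values of 57 named genes passed. The smallest adjusted p was 0.058, for Hcn2 in occluded against open with the trended robust prior. The median difference of the channel genes ranged from 0.015 to 0.065 in occluded against open, from -0.031 to 0.095 in occluded against normal and from -0.078 to 0.072 in open against normal. Counts at an unadjusted p under 0.05 moved more. In occluded against open (5 genes) there were 3 without a replicate block, 2 without normalization between arrays, 9 without the dimmest 30% of probes, 8 with an offset of 50, 2 with the mean of all probes, 9 of 136 when every probe was counted and 8 with the trended robust prior. With the replicate number as a fixed block there were 6, and 5 in a fit of the paired groups alone. Leaving out 1 replicate gave 2 to 14 genes, with 2 without occluded and open replicate 1 and 14 without replicate 3. In occluded against normal (3 genes) the replicate block with those groups alone gave 5, but it joins different mice by number. Leaving out 1 replicate gave 2 to 5 there, with 5 without occluded and open replicate 1. In open against normal (1 gene) there were 0 without a replicate block, with the median of arrays, without the dimmest 30% or 50% of probes, with the offset, with a floor of 16 and with the trended robust prior. Both fits with a replicate block gave 2, and they too join different mice by number. With 1 replicate left out there were 0 to 9, with 9 without occluded and open replicate 1, 2 without replicate 3 and 0 without normal replicate 3. The cause of these moves was not tested. The block changed no call at the adjusted threshold among channel genes. The pairing by number rests on the titles, and 1 of 3 pair correlations was below 0.1. With 3 replicates per group the precision is limited by the number of mice, and for the 10 channel genes below noise on most arrays no fold is given.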
